A study of Homo sapiens with 2 samples.

Results

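The Snail, ZEB and TWIST transcription factors and their close partners were examined as a group of 10 genes, SNAI1, SNAI2, SNAI3, ZEB1, ZEB2, TWIST1, TWIST2, FOXC2, PRRX1 and GRHL2, among 22465 genes that had a value on the arrays. They were chosen by gene symbol. SNAI1 was the starting point because its difference between the arrays was already known to be large, and the others were taken as its partners or opponents, so the difference of SNAI1 is given as a description. RNA came from NCI-H446, a widely used cell line from a human small cell lung carcinoma. The MTA1 cells held, as stable transfectants, an MTA1 overexpression plasmid, and the control cells a control vector. The protein MTA1 is part of NuRD, a complex that deacetylates histones and moves nucleosomes. Both were grown in the same serum-supplemented medium. The sources used here do not say whether each transfected population was a single clone. Each group was represented by 1 Affymetrix array, so there was no spread between replicates and no test, and each difference describes these 2 arrays alone.

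The epithelial-mesenchymal switch is a reversible change in which epithelial cells lose junctions and gain a motile, mesenchymal form. Snail, ZEB and TWIST factors bind E-box motifs in DNA and repress epithelial genes such as CDH1, which encodes E-cadherin, and they act in embryonic development, wound repair and tumour spread. GRHL2 and the miR-200 microRNAs hold cells in the epithelial state, and ZEB factors and miR-200 repress each other. The protein MTA1 has been tied to this switch in several carcinomas.

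The deposited values were log2 signals. A floor was set at 3.62, the median signal of all transcript clusters after averaging both arrays, and 14451 genes reached it on at least 1 array. Over these genes differences, taken as MTA1 minus control throughout, had a median of -0.01 and an SD of 0.25. MTA1 had a signal of 9.82 in MTA1 cells and 7.31 in control cells, a 5.71-fold difference in the direction of the labels. Of 8 neuroendocrine markers, 3 were at or above the floor: ENO2 at 9.13 in MTA1 cells and 8.89 in control cells, UCHL1 at 5.21 and 5.30, and INSM1 at 4.21 and 4.06. SYP, CHGA, NCAM1, DLL3 and GRP were below it on both arrays. Among the small cell lung cancer subtype factors with a value, YAP1 had 10.11 in MTA1 cells and 10.10 in control cells, and POU2F3 did not reach the floor. Among markers of other cell types, 2 of 7 for fibroblasts, 1 of 5 measured for leukocytes and 1 of 5 for endothelium were at or above the floor. The fibroblast markers were DCN, at 3.53 in MTA1 cells and 3.89 in control cells, below the floor on the MTA1 array, and COL1A1, at 4.03 and 3.93. The leukocyte marker was CD68, far above the floor at 11.19 in MTA1 cells and 11.26 in control cells. The endothelial marker was PECAM1, at 4.08 in MTA1 cells and 4.12 in control cells. Bacterial hybridisation controls, which are spiked in and not made by the cells, were higher on the MTA1 array by 0.23 to 0.28 on the log2 scale. Setting their mean difference to 0 would lower every difference below by 0.25, so that differences between 0 and this size change sign, those of YAP1 and INSM1 included.

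Of the 10 factors, 9 had a transcript cluster of their own, 1 each, and 8 of these were at or above the floor on at least 1 array. SNAI1 was the only one at least 2-fold higher in MTA1 cells, and none was at least 2-fold lower. Over all genes at or above the floor, 0.291% were higher by 2-fold or more and 0.339% were lower by as much. Since SNAI1 was chosen with its difference known, nothing is read from that comparison.

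SNAI1 encodes Snail, a zinc finger repressor of CDH1 and other junction genes. Its signal, from transcript cluster TC20000395.hg.1 on chromosome 20, was 8.55 in MTA1 cells and 5.89 in control cells. The log2 difference was 2.66, or 6.32-fold, the largest on the higher side among the 14451 genes. Only 4 genes, SNAI1 included, differed by at least this size in either direction. In control cells SNAI1 already stood 2.27 above the floor on the log2 scale, and in MTA1 cells 4.93 above it. In RNA from whole cultures, a larger share of cells with SNAI1 transcript and more transcript per cell cannot be told apart. The probes of this cluster were not examined for matches to the SNAI1 retrocopy SNAI1P1.

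The other Snail genes differed far less. SNAI2, which encodes Slug, a repressor known from neural crest cells and from basal epithelia, had a signal of 8.53 in MTA1 cells and 8.27 in control cells. That is a log2 difference of 0.26, or 1.20-fold, and 18.2% of all genes at or above the floor differed by at least as much. SNAI3, the least studied Snail gene, had 4.37 in MTA1 cells and 4.35 in control cells, 1.02-fold apart, with a sign that turned when the bacterial controls were set to 0. SNAI2 was thus clearly above the floor on both arrays and SNAI3 within 0.75 of it.

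The ZEB factors carry zinc finger clusters on either side of a homeodomain and repress CDH1 and the miR-200 genes. ZEB1 had a signal of 8.96 in MTA1 cells and 9.12 in control cells, a log2 difference of -0.16. Among all genes at or above the floor 37.3% differed by at least that much. Its antisense neighbour ZEB1-AS1 had 5.73 in MTA1 cells and 5.92 in control cells, a difference of -0.19. ZEB2 had no cluster of its own. A cluster assigned to both ZEB2 and its antisense transcript ZEB2-AS1 had 5.53 in MTA1 cells and 5.63 in control cells, and which of them it measures cannot be told from the annotation. A separate ZEB2-AS1 cluster had 3.61 in MTA1 cells and 3.45 in control cells, both under the floor.

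The TWIST factors are basic helix-loop-helix proteins that bind DNA as dimers with E proteins. TWIST1 had a signal of 6.20 in MTA1 cells and 6.32 in control cells, a log2 difference of -0.12. TWIST2 had 5.42 in MTA1 cells and 5.29 in control cells, a difference of 0.13 whose sign turned when the bacterial controls were set to 0. Both genes were at or above the floor on both arrays, and each was 1.09-fold apart.

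The remaining factors lay near or below the floor. FOXC2, a forkhead factor of mesoderm and vessel development, had 3.70 in MTA1 cells and 3.40 in control cells, so it reached the floor on the MTA1 array alone. Against the floor its difference was at least 1.06-fold. PRRX1, a homeodomain factor of limb mesenchyme, had 4.47 in MTA1 cells and 4.42 in control cells, 1.04-fold apart, with a sign that turned when the bacterial controls were set to 0. GRHL2, the grainyhead factor that opposes ZEB1 and supports CDH1, did not reach the floor, at 3.16 in MTA1 cells and 3.25 in control cells, and no fold is given for it. Leaving out SNAI1, the 7 factors at or above the floor differed by -0.16 to 0.30 with a median of 0.05, 5 of them above 0 and 2 below, against a median of -0.01 over all genes.

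**Figure D1:**
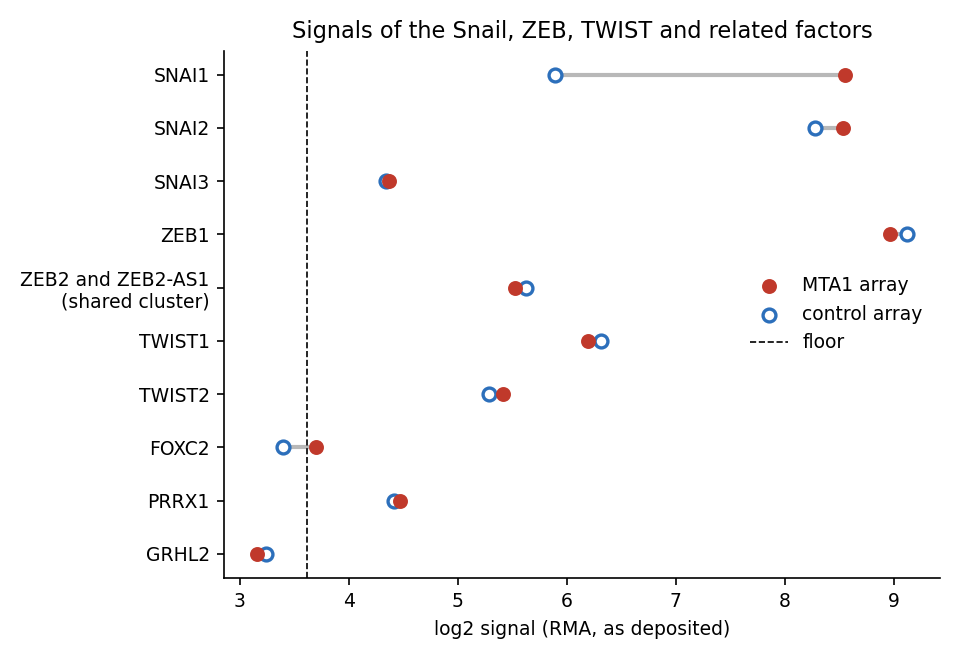
Log2 signal of each factor on the MTA1 array (filled points) and the control array (open points), with the floor of 3.62 as a dashed line and ZEB2 shown by the cluster it shares with ZEB2-AS1. SNAI1 lies at 8.55 and 5.89, the points of the other factors lie within 0.30 of each other, and GRHL2 lies left of the floor on both arrays.

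**Figure D2:**
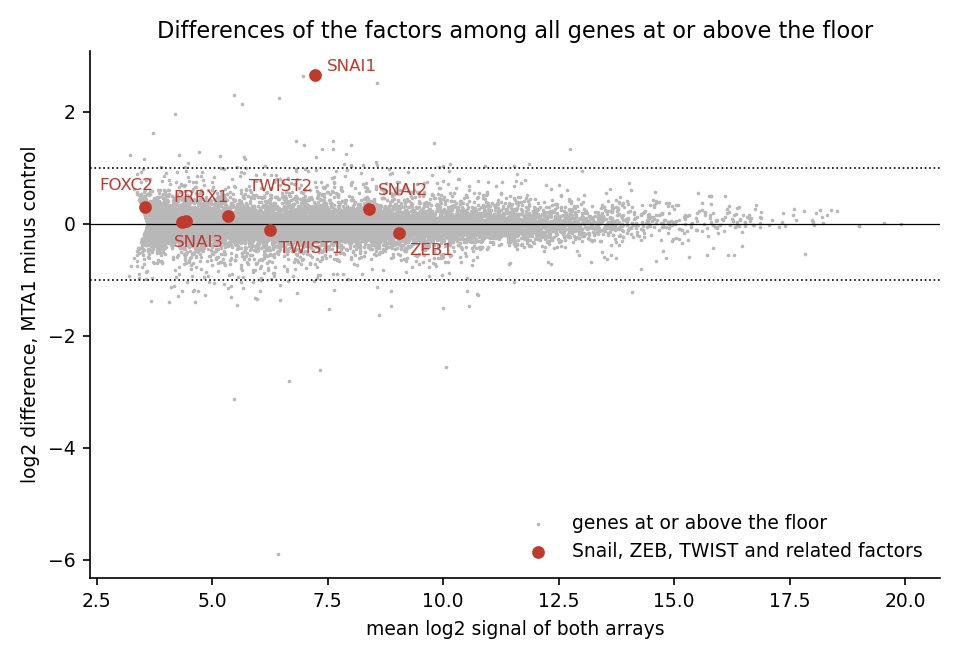
Log2 difference, MTA1 minus control, against the mean log2 signal of both arrays for the 14451 genes at or above the floor (grey) and the 8 factors among them (red), with dotted lines at 2-fold. SNAI1, at 2.66, is the highest of all points, and the other 7 factors lie between -0.16 and 0.30, within the bulk of genes.

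The genes whose difference was closest to that of SNAI1, among protein-coding genes at or above the floor, were SPINK6, MTA1, SPINK13, ANXA10 and MUC16. The measure of likeness was the log2 difference over the 2 arrays. SPINK6, which encodes a secreted Kazal-type protease inhibitor, had 8.28 in MTA1 cells and 5.65 in control cells, a difference of 2.63. The difference was 2.51 for MTA1, 2.30 for SPINK13, another inhibitor of that family, 2.25 for the annexin gene ANXA10 and 2.14 for the mucin gene MUC16. On the higher side the difference of SNAI1 thus lay just above those of SPINK6 and of the transfected gene.

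Genes beside SNAI1 on chromosome 20 were read in the order of the RefSeq table, 3 with a value on each side. On the left, the sodium-proton exchanger gene SLC9A8 had 8.70 in MTA1 cells and 8.50 in control cells, and the small RNA pseudogene RNU7-72P had 5.49 and 5.33. The ubiquitin ligase gene RNF114, next to SNAI1, had 9.71 in MTA1 cells and 9.70 in control cells. On the right, the ubiquitin-conjugating variant gene UBE2V1 had 8.32 in MTA1 cells and 8.34 in control cells. CEBPB, a leucine zipper transcription factor, had 5.86 in MTA1 cells and 6.13 in control cells, and the phosphatase gene PTPN1 had 10.15 and 10.23. All 6 were at or above the floor, and their differences of -0.27 to 0.20 contrast with 2.66 for the gene between them. When the bacterial controls were set to 0, SLC9A8, RNU7-72P and RNF114 turned sign, and UBE2V1 turned after loess or repeated quantile normalisation. Around the 10 factors there were 60 such neighbours, 40 of them at or above the floor, and none of the 40 was 1.5-fold apart, against 1.45% of all genes higher and 1.74% lower. PRPS1L1, near TWIST1, passed 1.5-fold on the higher side when the median of all genes was set to 0, and GORAB, KYNU and MIR4440 passed it on the lower side when the bacterial controls were.

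**Figure D3:**
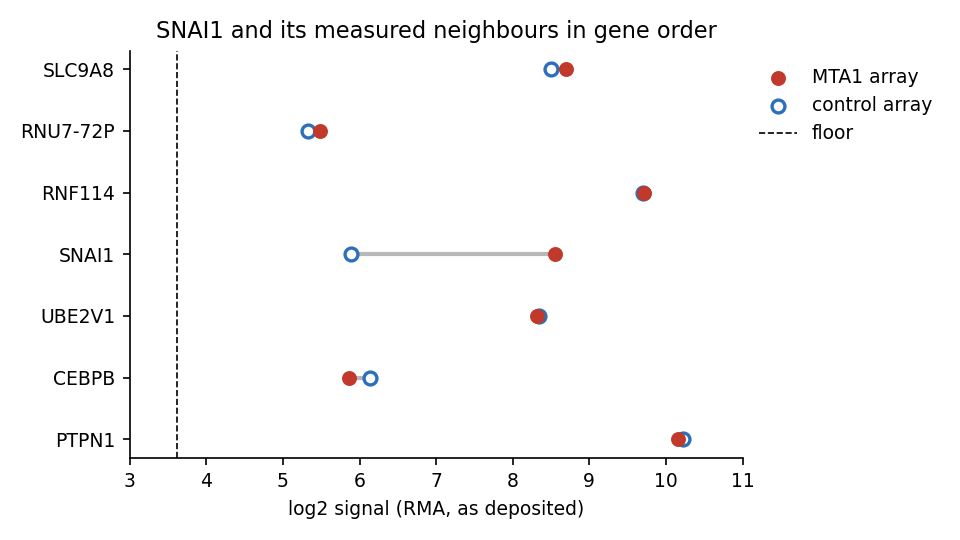
Log2 signal of SNAI1 and its 3 nearest genes with a value on each side, in chromosomal order from top to bottom, on the MTA1 array (filled) and the control array (open), with the floor dashed. SNAI1 is the only gene with widely separated points, at 8.55 and 5.89, and the other 6 differ by at most 0.27.

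Genes known to raise SNAI1 formed a list of 21, of which 20 were at or above the floor. Their median difference was 0.01, 12 were above 0 and 8 below, and none was 1.5-fold apart, against 1.45% of all genes higher and 1.74% lower by 1.5-fold or more. EGR1, an immediate early zinc finger factor, had 5.47 in MTA1 cells and 5.10 in control cells, 1.29-fold apart. SMAD3, a transducer of TGF-beta signals, had 8.24 in MTA1 cells and 7.89 in control cells, 1.27-fold apart. The TGF-beta receptor gene TGFBR2 had 11.65 in MTA1 cells and 11.99 in control cells, and PARP1, a poly-ADP-ribose polymerase, had 9.98 and 10.32, each a difference of -0.34.

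Corepressors and chromatin enzymes that Snail or ZEB recruit also differed little. All 18 were at or above the floor, and their median difference was -0.01. None was 1.5-fold apart, against 1.45% of all genes higher and 1.74% lower, so little can be read from that count. The largest differences were those of the Polycomb subunit gene SUZ12, at 11.31 in MTA1 cells and 11.51 in control cells, and of the histone methyltransferase gene SUV39H1, at 9.25 and 9.06, whose sign turned when the bacterial controls were set to 0. The arginine methyltransferase gene PRMT5 had 10.41 in MTA1 cells and 10.59 in control cells, and CTBP1, the corepressor bound by ZEB proteins, had 6.95 and 7.13.

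Snail protein is short-lived, being phosphorylated by GSK3 and marked for the proteasome by several ubiquitin ligases. Of 21 genes that act on Snail protein, 19 had a value and were at or above the floor, with a median difference of -0.01. None was 1.5-fold apart, against 1.45% of all genes higher and 1.74% lower. The Hippo kinase gene LATS2 had 6.49 in MTA1 cells and 6.86 in control cells, a difference of -0.36. The checkpoint kinase gene ATM, at 9.03 in MTA1 cells and 9.21 in control cells, and the F-box gene FBXW11, at 8.91 and 9.09, differed by -0.19 and -0.17. PRKD1, a kinase near the floor, had 4.02 in MTA1 cells and 3.85 in control cells, with a sign that turned when the bacterial controls were set to 0. These are transcripts, and Snail protein was not measured.

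E proteins pair with TWIST factors, and ID proteins bind E proteins and keep them off DNA. Of these 7 genes 5 were at or above the floor, with a median difference of 0.08. ID2 had 5.06 in MTA1 cells and 4.45 in control cells, 1.52-fold apart, whereas ID3 had 4.91 in MTA1 cells and 5.21 in control cells, a difference of -0.30. ID1 had 9.28 in MTA1 cells and 9.19 in control cells, and the E protein gene TCF3 had 7.63 and 7.55, both with a sign that turned when the bacterial controls were set to 0. The E protein gene TCF4 was below the floor on both arrays.

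Other transcription factors tied to the mesenchymal switch held 2 of 13 genes that were at least 1.5-fold higher and none that was 1.5-fold lower, against 1.45% and 1.74% of all genes. FOXQ1, a forkhead factor, had 8.86 in MTA1 cells and 8.06 in control cells, 1.73-fold apart. SOX4, an HMG-box factor, had 9.67 in MTA1 cells and 9.07 in control cells, 1.51-fold apart, and both ID2 and these 2 genes were under 1.5-fold when the bacterial controls were set to 0. FOSL1, which encodes the AP-1 subunit Fra-1, had 6.96 in MTA1 cells and 6.53 in control cells, and ETV5, an ETS factor, had 8.39 and 8.20, with a sign that turned when the bacterial controls were set to 0. The median of the 13 was 0.09. FOXF1, GSC, PRRX2, KLF8, MSX1 and MEOX2 were below the floor on both arrays.

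Factors that keep the epithelial state were in part below the floor. Of 16 with a value, 8 were below it on both arrays, among them OVOL1, OVOL2, GRHL1, GRHL3 and ESRP1. Of all 22465 genes with a value, 14451 reached the floor on at least 1 array. The other 8 factors, at or above the floor, were EHF, FOXA1, KLF4, ELF3, KLF5, ESRP2, RBM47 and FOXA2. The median difference of the other 8 was 0.05, and none was 1.5-fold apart, against 1.45% of all genes higher and 1.74% lower. EHF, an ETS factor of epithelia, had 6.02 in MTA1 cells and 6.58 in control cells, a difference of -0.56. The pioneer factor gene FOXA1 had 5.07 in MTA1 cells and 4.70 in control cells, 1.29-fold apart. KLF4 had 6.92 in MTA1 cells and 6.71 in control cells, and ELF3 had 5.38 and 5.23, both with a sign that turned when the bacterial controls were set to 0.

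**Figure D4:**
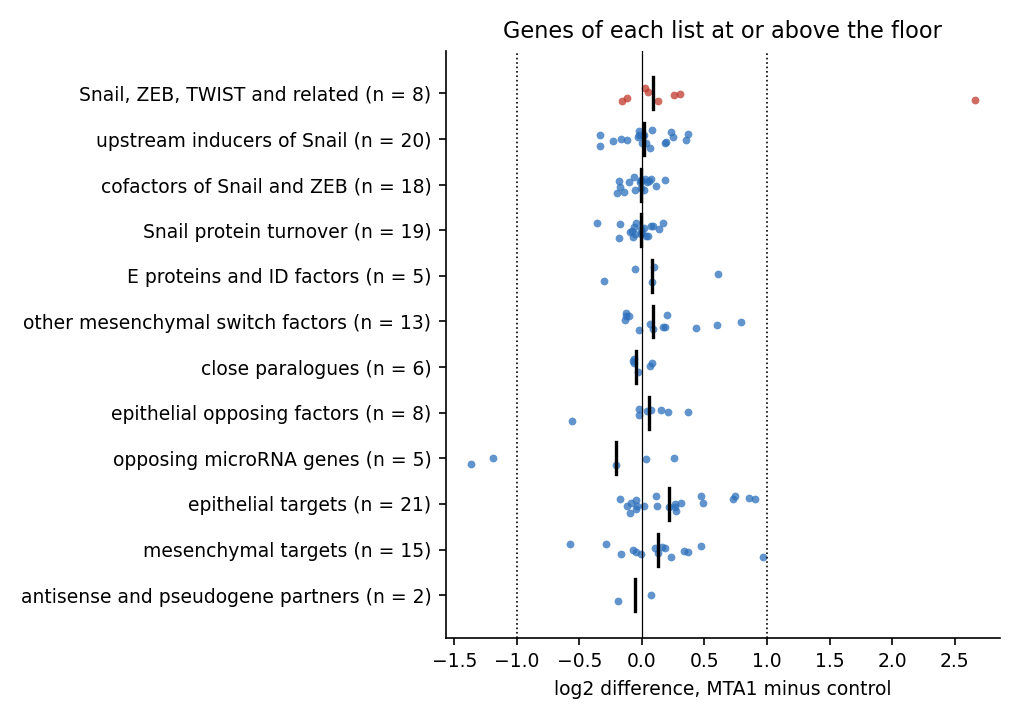
Log2 difference, MTA1 minus control, of the genes at or above the floor in each list, 1 point per gene, with the list median as a black bar and dotted lines at 2-fold. SNAI1, at 2.66, stands right of all other points, and the 2 points left of the lower line are MIR30C2 and MIR30E.

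MicroRNAs oppose the ZEB and Snail factors after transcription. The miR-200 family is known to target ZEB1 and ZEB2 mRNA, and miR-30 and miR-34 are known to target SNAI1 mRNA. Mature sequences from RefSeq (GRCh38.p14) are shown to let the seed groups be compared, with the seed, bases 2 to 8, in capitals. The first 5 belong to the miR-200 family, which splits into 2 seed groups, and the next 3 share the miR-30 seed.
hsa-miR-200b-3p: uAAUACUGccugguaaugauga
hsa-miR-200c-3p: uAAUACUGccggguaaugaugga
hsa-miR-429: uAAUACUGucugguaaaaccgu
hsa-miR-200a-3p: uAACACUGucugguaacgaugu
hsa-miR-141-3p: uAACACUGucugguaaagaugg
hsa-miR-30a-5p: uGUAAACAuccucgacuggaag
hsa-miR-30c-5p: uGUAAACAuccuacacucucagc
hsa-miR-30e-5p: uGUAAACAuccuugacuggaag
hsa-miR-34a-5p: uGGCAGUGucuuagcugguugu

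The miR-200 genes lie in 2 clusters. In RefSeq, miR-200b-3p is at chr1:1167160-1167181 and miR-200c-3p at chr12:6963742-6963764, both on the plus strand. All 5 genes, MIR200A, MIR200B, MIR200C, MIR141 and MIR429, were below the floor on both arrays. Their signals were 2.24 to 3.38 in MTA1 cells and 2.22 to 3.50 in control cells. Of all 1032 microRNA genes with a value, 483 were at or above the floor, so most were below it on both arrays. ZEB1, a target of the miR-200 family, was 5.35 above the floor in MTA1 cells and 5.51 above it in control cells on the log2 scale. The features measure transcripts of the microRNA genes, and mature microRNAs were not measured.

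Of 14 microRNA genes in this list with a value, 5 were at or above the floor, and 2 of those were at least 2-fold lower in MTA1 cells. Among all 483 microRNA genes at or above the floor, 1.24% were higher and 1.86% lower by 2-fold or more, and the SD of their differences was 0.40, against 0.25 over all genes. MIR30C2 had a signal of 5.79 in MTA1 cells and 7.15 in control cells, a log2 difference of -1.37 and 2.58-fold. MIR30E had 3.98 in MTA1 cells and 5.18 in control cells, a difference of -1.19 and 2.29-fold. Its MTA1 signal lay only 0.37 above the floor on the log2 scale, which limits how exactly that fold is known. Both genes remained at least 2-fold lower under each scaling tried.

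MIR30C1 had 4.64 in MTA1 cells and 4.39 in control cells, 1.19-fold apart. Its difference of 0.25 was smaller than the SD of 0.40 over microRNA genes, and it was 0.008 when the bacterial controls were set to 0. MIR30C1 and MIR30C2 give the same mature miR-30c-5p printed above, at chr1:40757300-40757322 on the plus strand and chr6:71377003-71377025 on the minus strand. Of these 2 loci, only MIR30C2 differed by more than that SD. MIR30C1 and MIR30E both lie within NFYC, a gene for a CCAAT-binding subunit, which had 7.42 in MTA1 cells and 7.54 in control cells. MIR30A, MIR30B and MIR30D were below the floor on both arrays. MIR34A had 4.49 in MTA1 cells and 4.70 in control cells, a difference of -0.21.

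**Figure D5:**
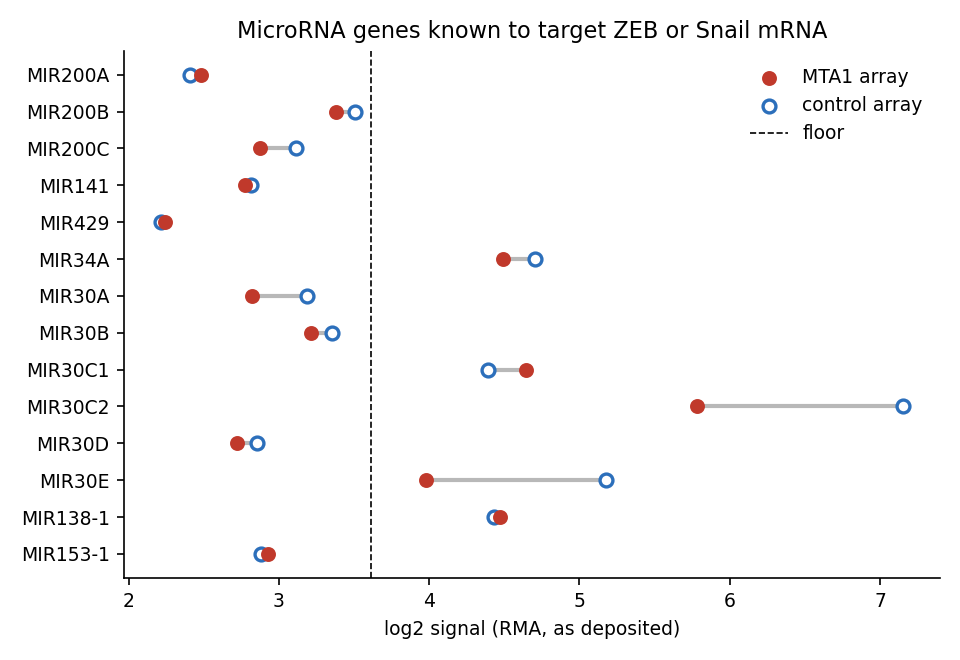
Log2 signal of the 14 microRNA genes with a value that are known to target ZEB or Snail mRNA, on the MTA1 array (filled) and the control array (open), with the floor dashed. MIR30C2 and MIR30E have the widest gaps, at 5.79 against 7.15 and at 3.98 against 5.18, and the 5 genes of the miR-200 family lie left of the floor.

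Epithelial genes that Snail, ZEB or TWIST are known to repress did not have lower signals as a list. Of 28 such genes 26 had a value and 21 were at or above the floor. Their median difference was 0.22, with 14 above 0 and 7 below, against -0.01 over all genes, and it was -0.03 when the bacterial controls were set to 0. Of the 21 genes, 4 were at least 1.5-fold higher and none 1.5-fold lower, against 1.45% and 1.74% of all genes. The list was drawn up with earlier results of these arrays known, so the counts are a description.

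DSP, which encodes the desmosome protein desmoplakin, had 9.35 in MTA1 cells and 8.45 in control cells, 1.87-fold apart. The keratin genes KRT19 and KRT8 had 6.04 and 14.39 in MTA1 cells and 5.19 and 13.66 in control cells, 1.81-fold and 1.66-fold apart. CLDN1, a tight junction claudin, had 11.33 in MTA1 cells and 10.59 in control cells, 1.68-fold apart. Each of these 4 was higher on the array on which SNAI1 was higher, and KRT8 and CLDN1 were under 1.5-fold when the bacterial controls were set to 0. CDH1, the best known Snail target, did not reach the floor, at 3.13 in MTA1 cells and 3.09 in control cells. CRB3, a polarity gene repressed by ZEB1 and Snail, was also below it on both, at 3.53 and 3.38.

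Snail and ZEB bind the E-box CACCTG, which reads CAGGTG on the other strand. In the 250 bases before a start site, 20.6% of 27305 genes in the RefSeq promoter table held it on either strand in at least 1 window. Of the 28 epithelial genes 17 had a window, and 12 of them, or 70.6%, held the motif. Of the 25 mesenchymal genes described next 13 had a window, and 2 of them, or 15.4%, held it. A share of genes favours those with several start sites, and a share of windows counts such genes more than once. Per window, the shares were 56.0% of 25 epithelial and 15.8% of 19 mesenchymal windows, against 17.5% of all 35116. The epithelial list was drawn up from known targets, so a high share of E-boxes was built into it, and a match of letters is a description and not a bound site.

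The windows of DSP, whose signal was higher in MTA1 cells, and of CRB3, which was below the floor on both arrays, are shown as examples that hold the motif more than once. They are the 250 bases before the RefSeq start site (GRCh38.p14), at chr6:7541421-7541670 for DSP and chr19:6464021-6464270 for CRB3, both on the plus strand, with E-boxes in capitals.
DSP: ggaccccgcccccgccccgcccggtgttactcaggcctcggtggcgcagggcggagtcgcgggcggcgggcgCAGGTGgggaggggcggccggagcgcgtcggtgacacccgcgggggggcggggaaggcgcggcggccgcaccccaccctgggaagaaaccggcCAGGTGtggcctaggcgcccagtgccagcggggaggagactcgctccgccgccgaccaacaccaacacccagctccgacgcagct
CRB3: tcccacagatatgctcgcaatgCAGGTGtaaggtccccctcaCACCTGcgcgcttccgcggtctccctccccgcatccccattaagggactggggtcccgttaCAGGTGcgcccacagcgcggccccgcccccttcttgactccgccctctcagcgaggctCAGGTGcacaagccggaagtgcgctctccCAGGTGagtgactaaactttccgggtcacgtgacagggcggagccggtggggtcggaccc
DSP held 2 E-boxes, starting 178 and 85 bases before the start site, and CRB3 held 5, starting between 228 and 60 bases before it. KRT8 and CLDN1, both among the 4 higher genes, had windows without the motif. KRT19, also among the 4, and CDH1 had no window and were not scanned.

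Mesenchymal genes that accompany these factors gave a mixed picture. Of 25, 22 had a value and 15 were at or above the floor, with a median difference of 0.13, 9 above 0 and 6 below. That median was -0.11 when the bacterial controls were set to 0. TNC, which encodes the matrix protein tenascin C, had 7.49 in MTA1 cells and 6.52 in control cells, 1.96-fold apart, and passed 2-fold after loess, at 1.02 on the log2 scale, and after repeated quantile normalisation, at 1.03. FAP, a surface protease, had 11.90 in MTA1 cells and 11.43 in control cells, 1.39-fold apart. ITGA5, the fibronectin receptor subunit, had 14.997 in MTA1 cells and 14.63 in control cells, 1.29-fold apart. FN1, which encodes fibronectin and is known to accompany Snail, differed the other way, with 9.86 in MTA1 cells and 10.43 in control cells, a difference of -0.57. VIM, which encodes the filament protein vimentin, had 14.64 in MTA1 cells and 14.31 in control cells, and CDH2, which encodes N-cadherin, had 13.09 and 12.91, with a sign that turned when the bacterial controls were set to 0. SPARC, COL1A2, COL5A2, MMP3, LEF1, POSTN and PDGFRB were below the floor on both arrays.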

How the data were processed

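RNA of 1 MTA1 and 1 control culture was hybridised to Affymetrix arrays. The deposited values are on the log2 scale. The submitters' processing notes name RMA, which the authors ran. The sources used here do not give its version, summarisation level, genome build or any further transformation. At 829 features a value exceeded 16, the log2 of the largest scanner reading, so fold sizes depend on a transformation that is not known. The number of arrays limits the precision.

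Values were used as deposited. Transcript clusters were named from the platform table and updated by gene identifier to RefSeq (GRCh38.p14). There were 23781 clusters with 1 symbol, 1543 with several, which named no gene, and 42204 without. Of those with 1 symbol 21497 matched RefSeq. Each gene was represented by its brightest cluster and kept if the higher array reached the floor. Where 1 array lay below the floor, the fold was computed against the floor as a lower bound. Called means at least 2-fold, and 1.5-fold where stated.

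All members were named. Of each other list the 4 largest differences and all genes at least 1.5-fold apart were named. Named after their values were seen were CDH1, CRB3, NFYC, VIM, CDH2, KLF5, ESRP2, RBM47, FOXA2, CD68, PECAM1 and ZEB2-AS1. So were the miR-200 and miR-30 genes below the floor, and the markers and other genes given as below the floor. The members and lists were chosen with earlier results of these data known. Promoter sequences of SNAI1, SNAI2, SNAI3, TWIST1, FOXC2 and GRHL2 were not used here. Alternatives changed scaling, floor, cluster per gene, threshold and symbol matching. The counting was tested on simulated data with shifts planted far from the threshold, which checks the counting and not how reliable the calls are. Python 3.11.15, numpy 2.4.6, pandas 2.3.3, matplotlib 3.10.9, R 4.3.3 and limma 3.58.1 were used.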

Additional observations from a re-analysis of the deposited data

How the results depend on the processing

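SNAI1 was the only factor past the threshold on the higher side, and none was past it on the lower side, under all 13 alternatives in scaling, floor, cluster per gene, threshold and symbol matching. The difference of SNAI1 ranged from 2.42 to 2.73 on the log2 scale, or 5.33-fold to 6.64-fold. Setting the mean of the bacterial controls to 0 gave the value of 2.42, turned the median of the factors at or above the floor to -0.16 from the reported 0.09, and gave 17 genes at least 2-fold higher and 118 lower, against 42 and 49. It moved the median of all genes by -0.25, and the signs of SNAI3, TWIST2 and PRRX1 turned under it. A threshold of 1.5-fold gave 210 higher and 252 lower genes, and 3-fold gave 8 and 6. No paired analysis was possible because each group held 1 array. Differences between clusters of the same gene had a pooled SD of 0.13 (273 genes), or 0.27 with the main chromosomes alone (149 genes). This spread is between clusters of 1 gene on the same 2 arrays and leaves out how cultures vary. Apart from SNAI1 the factors' differences were at most 0.30 in size. Those of SNAI2, FOXC2 and ZEB1 were larger in size than 0.13. Of these only that of FOXC2, near the floor, was larger than 0.27. Every list median given as above 0 in the report turned below 0 when the bacterial controls were set to 0, and the medians of the corepressor and turnover lists, near 0, also changed sign when the median of all genes was set to 0. Keeping clusters with several symbols gives ZEB2 the value of its shared cluster, -0.10. LATS2, EHF and FN1 passed 1.5-fold on the lower side when the bacterial controls were set to 0. Signals near the floor limit SNAI3, PRRX1, FOXC2 and GRHL2, and MIR30E on the MTA1 array.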

Other observations

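Close relatives of the factors by sequence were mostly low or level. Of 13 with a value, 7 were below the floor on both arrays, among them SCRT1, the neuronal Scratch gene, and GRHL1 and GRHL3. Of all 22465 genes with a value, 14451 reached the floor on at least 1 array. The 6 at or above the floor had differences of -0.08 to 0.08. The grainyhead relative TFCP2 had 8.89 in MTA1 cells and 8.96 in control cells. UBP1, of the same family, had 8.35 and 8.28, and its sign and that of GFI1B turned when the bacterial controls were set to 0. HAND2, a heart and limb bHLH factor, had 3.88 in MTA1 cells and 3.96 in control cells, and GFI1B, a blood zinc finger factor, had 3.70 and 3.62. The antisense transcript SNAI3-AS1 had 5.08 in MTA1 cells and 5.00 in control cells, with a sign that turned when the bacterial controls were set to 0.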
